A study of Homo sapiens with 3 samples.

Results

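The nuclear genes of the mitochondrial respiratory chain and of ATP synthase were examined in 3 lines of HaCaT, an immortalised human keratinocyte line. The genes were taken by symbol, as the NDUFA, NDUFB, NDUFC, NDUFS and NDUFV genes of complex I, SDHA to SDHD of complex II, the UQCR genes of complex III, the COX4 to COX8 genes of complex IV and the ATP5 genes of complex V, without numbered pseudogenes. This gave 85 of the 55773 symbols in the table, with 37 in complex I, 4 in complex II, 8 in complex III, 17 in complex IV and 19 in complex V. All 3 lines express the oncogenic HRAS mutant HRasG12V and differ in what was then transduced, namely THG-1 (S264A), THG-1 (WT) or empty vector (-). THG-1 is the product of TSC22D4, and in S264A a serine is replaced by alanine. The cells were grown in DMEM containing 10% fetal bovine serum, and total RNA was sequenced. Each line gave 1 library, so that no test was possible and a difference between lines cannot be told apart from a difference between cultures.

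Complexes I to IV pass electrons from NADH and succinate to oxygen, and complexes I, III and IV pump protons out of the mitochondrial matrix as they do so. Complex V, ATP synthase, lets the protons return and makes ATP. Every complex but the second mixes subunits of the mitochondrial genome with nuclear ones, and many of the nuclear genes encode accessory subunits that stabilise the complexes, tune them or take part in assembly.

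The recovered depth was 14022885 reads in the S264A library, 12733479 in the wild-type library and 32055052 in the empty-vector library, 2.52 times the depth of the shallowest. Levels are in RPKM, read counts scaled to transcript length and library depth. TSC22D4 stood at 51.1 RPKM in S264A, 64.9 RPKM in wild type and 7.98 RPKM with empty vector, and HRAS at 22.4, 27.8 and 23.9 RPKM in the same order. All 8 keratinocyte markers were at or above 17.4 RPKM in every library, and none of the 6 fibroblast, 6 muscle, 5 immune and 4 melanocyte markers reached 1 RPKM. The fibroblast markers summed to 0.643, 0.825 and 0.557 RPKM in the S264A, wild-type and empty-vector libraries.

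Promoter sequences were used for 59 of the 85 genes, from RefSeq on GRCh38.p14, as 250 bases before and 50 bases after the start. The other 26 genes had no match with 1 start and were left out. The sequences were searched on both strands for the letters of 4 factors known for housekeeping and respiratory promoters. The letters of NRF1, GCGCA and GCGC with 1 base of any kind between them, were found in 16 of the 59 promoters (27.1%), against 10.4% of the 13137 promoters of genes that passed the level filter of a comparison and 5.78% of all 35116 promoters. AANATGGCG, the letters of YY1, was present in 14 (23.7%), against 6.48% and 3.19%. CCGGAAG, the letters of ETS factors such as GABP, was found in 17 (28.8%), against 18.2% and 10.3%, and GGGCGGG, the letters of SP1, in 15 (25.4%), against 51.1% and 33.1%. At least 1 of the 4 was present in 43 of the 59, and letters shared by overlapping motifs were counted for each. The background promoters may include genes with several starts, unlike the 59, so that the shares may compare unlike sets.

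The 6 windows below run from 100 bases before to 50 bases after the start and are shown because the results turn on complex III, whose median was the lowest in S264A over empty vector, and on COX4I1, the member that stood highest in S264A. Capitals mark the motif letters on either strand. The windows lie at chr5:132866542-132866691 on the plus strand for UQCRQ, chr22:29767269-29767418 on the plus strand for UQCR10, chr3:48609597-48609746 on the minus strand for UQCRC1, chr19:29213102-29213251 on the minus strand for UQCRFS1, chr1:46303598-46303747 on the plus strand for UQCRH and chr16:85799595-85799744 on the plus strand for COX4I1.
UQCRQ: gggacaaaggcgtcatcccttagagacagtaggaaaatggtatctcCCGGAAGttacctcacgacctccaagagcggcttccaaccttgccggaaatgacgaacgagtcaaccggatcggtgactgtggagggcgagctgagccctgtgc
UQCR10: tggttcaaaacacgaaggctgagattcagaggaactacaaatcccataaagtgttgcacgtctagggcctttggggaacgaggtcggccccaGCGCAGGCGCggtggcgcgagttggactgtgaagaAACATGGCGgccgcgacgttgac
UQCRC1: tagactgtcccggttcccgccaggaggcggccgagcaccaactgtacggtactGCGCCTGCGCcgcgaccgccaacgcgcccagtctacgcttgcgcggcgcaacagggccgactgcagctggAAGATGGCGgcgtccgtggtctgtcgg
UQCRFS1: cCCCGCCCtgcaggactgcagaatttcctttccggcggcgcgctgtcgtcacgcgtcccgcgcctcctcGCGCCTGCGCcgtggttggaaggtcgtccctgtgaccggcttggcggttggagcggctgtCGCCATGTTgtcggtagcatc
UQCRH: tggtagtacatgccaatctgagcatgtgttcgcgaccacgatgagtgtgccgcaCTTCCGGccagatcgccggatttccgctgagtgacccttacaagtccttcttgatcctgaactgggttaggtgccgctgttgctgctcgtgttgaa
COX4I1: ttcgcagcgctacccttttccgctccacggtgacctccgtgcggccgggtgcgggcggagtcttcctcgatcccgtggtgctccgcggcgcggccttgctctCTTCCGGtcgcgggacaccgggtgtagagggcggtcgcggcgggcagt
UQCRQ, UQCRH and COX4I1 hold ETS letters, and UQCR10, UQCRC1 and UQCRFS1 hold NRF1 and YY1 letters, the YY1 letters lying after the start in each of those 3. UQCRFS1 also holds SP1 letters, where its window opens, and UQCR10 and UQCRC1 hold none. Of the complex III promoters searched but not printed, that of UQCR11 holds NRF1, ETS and SP1 letters and that of UQCRC2 holds none of the 4 motifs. The genes that stood lowest and highest in S264A within this set, UQCRQ and COX4I1, thus hold letters of the same motif and of no other searched here. Among the 55 members with a promoter that entered a comparison, the median log2 difference of S264A from empty vector was -0.19 for the 15 with NRF1 letters and -0.15 for those without, and -0.12 with and -0.22 without ETS letters. For YY1 letters it was -0.12 with and -0.19 without, and for SP1 letters -0.19 with and -0.12 without. These differences between sets were not tested.

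Levels are compared per length, since the transcript lengths behind the values ran from 507 bases for COX8A to 12268 bases for NDUFS1. Complex IV had the highest median level, 37.7 RPKM in S264A, 35.5 RPKM in wild type and 34.5 RPKM with empty vector over its 11 genes at or above 1 RPKM. Complex III followed with 20.8 RPKM in S264A, 25 RPKM in wild type and 27.9 RPKM with empty vector, and complex II with 21.4, 19.1 and 21.6 RPKM in that order of lines. Complex V had 14.9, 13.4 and 14.7 RPKM over 17 genes, and complex I had 11.9, 12 and 12.3 RPKM over 37 genes. The medians of complexes II and III changed places between lines, while complex IV stood highest and complex I lowest in each. All members together summed to 1685 RPKM in S264A, 1858 RPKM in wild type and 1959 RPKM with empty vector.

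**Figure D1:**
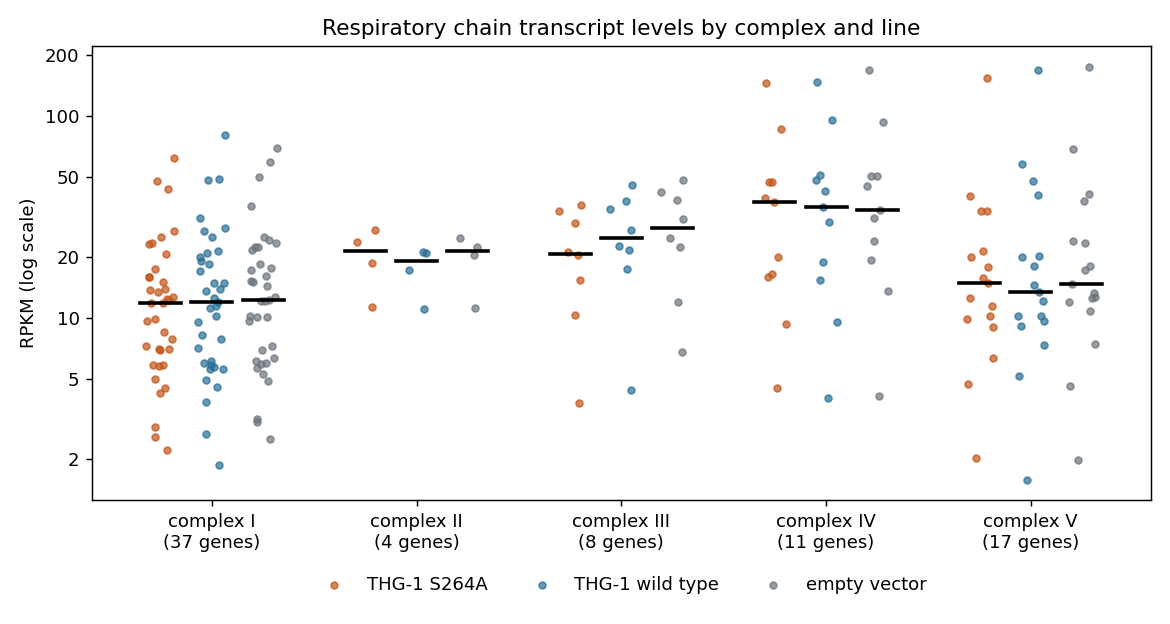
Level of each respiratory chain gene (points, RPKM, log scale) by complex in the S264A, wild-type and empty-vector lines, with the median as a bar; genes below 1 RPKM on average are left out. The medians of complex III are 20.8, 25 and 27.9 RPKM in that order, and those of complex I lie between 11.9 and 12.3 RPKM.

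ATP5B, the catalytic beta subunit of ATP synthase, was the most abundant member at 155 RPKM in S264A, 170 RPKM in wild type and 176 RPKM with empty vector. COX8A, a small membrane subunit of cytochrome c oxidase, came next at 145, 148 and 168 RPKM. NDUFB7, an accessory subunit on the intermembrane space side, led complex I at 62.0, 80.3 and 69.8 RPKM, and NDUFA5, an accessory subunit of its matrix arm, ended it at 2.22, 1.87 and 2.51 RPKM. In complex II, SDHD, a membrane anchor, was at 27.4, 20.9 and 22.6 RPKM and the flavoprotein gene SDHA at 11.3, 11.1 and 11.3 RPKM. UQCRFS1, the Rieske iron-sulphur protein, led complex III at 36.4, 45.7 and 48.3 RPKM, and UQCRB was its lowest gene at 3.81, 4.41 and 6.83 RPKM. With empty vector UQCRB still had 2127 reads against 2369 for UQCRFS1, at lengths of 9715 and 1530 bases. In the same library NDUFA5 had 792 reads at 9851 bases, and NDUFB7 had 1188 at 531 bases. The order within a complex thus depends on the lengths used for RPKM. The lowest genes of the other complexes by symbol, COX7A2L at 4.53, 4.02 and 4.13 RPKM and ATP5S at 2.02, 1.59 and 1.98 RPKM, are not counted as core members of their complexes today. COX7A2L is known as a supercomplex factor and ATP5S as a factor outside ATP synthase. In the S264A library ATP5B had 4928 reads and ATP5S had 52, the ends of the range of reads behind these levels.

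Of the 85 genes, 77 reached 1 RPKM in at least 1 library of every comparison, and the other 8 did not. COX4I2, COX6A2, COX7B2 and COX8C, isoforms known from lung, muscle or testis, had 0 reads in all 3 libraries, as had ATP5J2LP, a pseudogene by its name. A count of 0 allows up to 3 reads, which for a transcript of 1 kb is 0.214 RPKM in S264A, 0.236 RPKM in wild type and 0.0936 RPKM with empty vector. The testis isoform COX6B2 gave 0.740% of the COX6B level in S264A (95% interval 0.437 to 1.17), 0.250% in wild type (0.0915 to 0.546) and 0.706% with empty vector (0.508 to 0.957), from 18, 6 and 42 reads. The muscle isoform COX7A1 gave 3.02% of the COX7A level in S264A (1.23 to 6.08), 1.49% in wild type (0.310 to 4.27) and 1.11% with empty vector (0.448 to 2.26), from 7, 3 and 7 reads. ATP5L2, a copy of the subunit g gene, had 1, 1 and 6 reads. All intervals here are exact Clopper-Pearson intervals and cover counting error only, and reads are not independent molecules. For each of these subunits the widespread isoform thus made up nearly the whole level, in all 3 lines.

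The c ring of ATP synthase, which turns as protons pass, is encoded by 3 genes for the same mature protein, and these were of like level. ATP5G2 gave 39.6% of their summed RPKM in S264A, 31.4% in wild type and 36.7% with empty vector. ATP5G1 gave 32.0%, 35.2% and 31.3%, and ATP5G3 gave 28.4%, 33.4% and 32.0%. ATP5G2 was the largest share in S264A and with empty vector but the smallest in wild type.

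The first comparison asked how the chain stood in the S264A line relative to empty vector. Most members were lower in S264A, by small amounts. Of 77 members, 62 were below 0 on the scale log2((RPKM + 1)/(RPKM + 1)), against 47.8% of the 12010 genes compared, and the median was -0.17, against 0.02 for all genes and 0.01 for the 3295 genes at or above 10 RPKM. On that scale 18 members (23.4%) were at least 20% lower, against 13.5% of all genes, and 2 were at least 25% higher, against 18.6%. With upper-quartile scaling 43 members were at least 20% lower, against 27.9% of all genes. No member was 2-fold lower or higher, against 0.824% and 2.99% of all genes. The lowest 25% of all genes held 36 of the 77 members and the highest 25% held 4. In RNA from whole cultures, less RNA per cell and fewer cells that express a gene cannot be told apart.

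**Figure D2:**
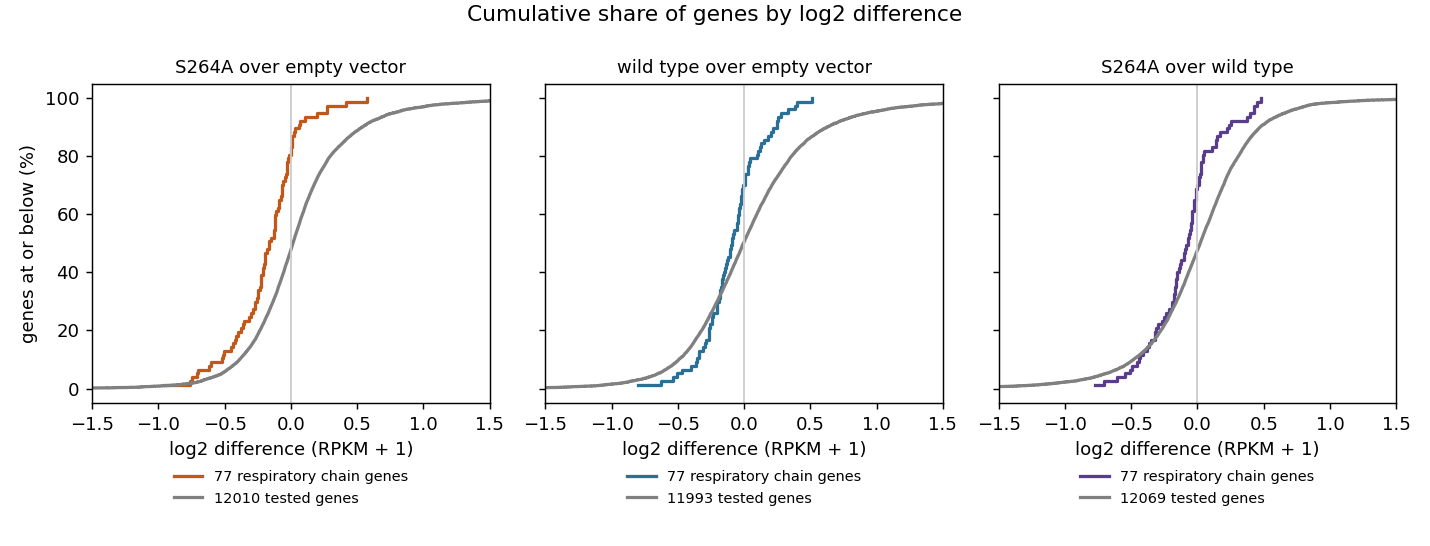
Cumulative share of genes (%) by log2 difference for the 77 respiratory chain genes (coloured) and all compared genes (grey) in each comparison. The coloured curve lies left of the grey one over most of its range in S264A over empty vector, with 62 of 77 members below 0, and the coloured curves of the other comparisons are steeper than the grey ones and cross them below 0.

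Complex III stood lowest, with a median of -0.33, all 8 genes below 0 and 4 of them at least 20% lower. It was followed by complex IV at -0.21 (9 of 11 below 0), complex V at -0.20 (14 of 17), complex I at -0.09 (29 of 37) and complex II at -0.02 (2 of 4, and 3 of 4 under each rescaling). The 3 complex V genes above 0 were ATP5L at 0.42, ATP5S at 0.02 and ATP5SL at 0.03. ATP5S and ATP5SL, the latter now named DMAC2, are placed in complex V by symbol only. Complex III remained the lowest and complex II the highest under all 11 alternative settings. UQCR11 has 2 rows in the table, and its row of lower mean stood at 11.6 RPKM in S264A and 11.2 RPKM with empty vector, a difference of 0.05, so that 7 of 8 were below 0 with that row.

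**Figure D3:**
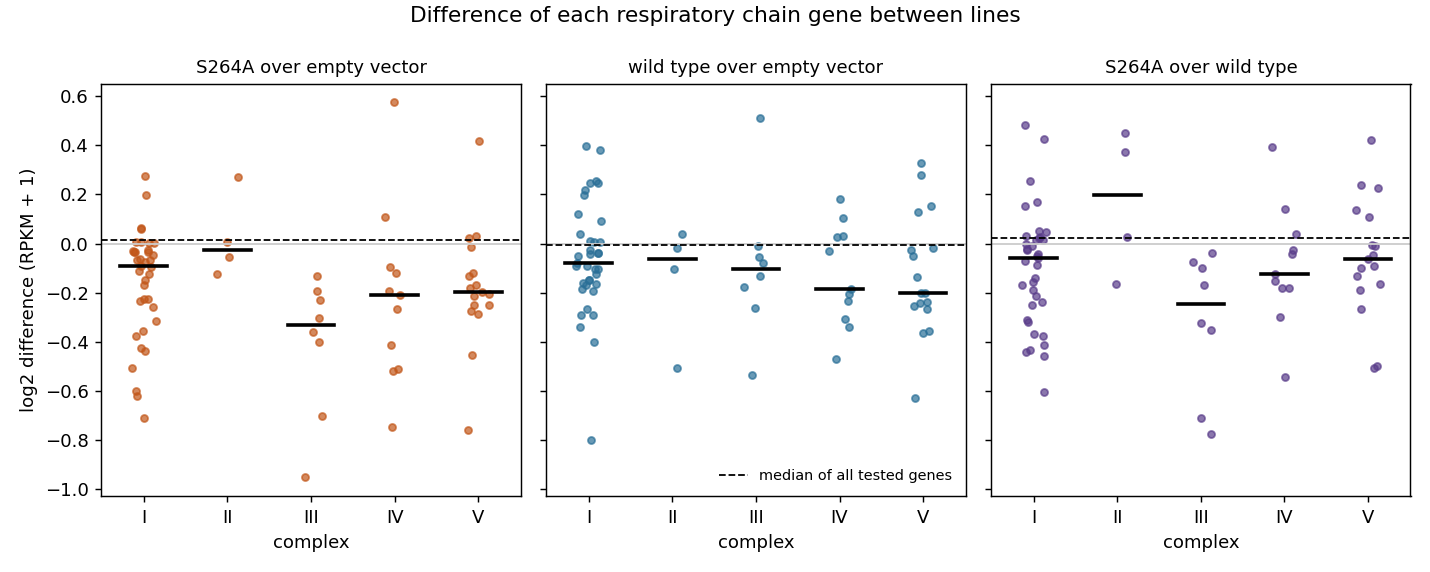
Log2 difference of each member (points) by complex in the 3 comparisons, with the median of each complex as a bar and the median of all compared genes as a dashed line. In S264A over empty vector the complex III bar lies at -0.33, and all 8 of its points are below 0.

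Within complex III, UQCRQ, a small subunit that joins cytochrome b early in assembly, had 15.5 RPKM in S264A, 27.3 RPKM in wild type and 30.9 RPKM with empty vector. S264A thus stood apart from both other lines, at 0.501 times the empty-vector level (95% counting interval 0.443 to 0.566), a log2 difference of -0.95 and the largest of any member in any of the comparisons. It was at least 2-fold lower with upper-quartile scaling and in the quantile-normalised columns. UQCRB, the other early partner of cytochrome b, had 3.81 RPKM in S264A, 4.41 RPKM in wild type and 6.83 RPKM with empty vector, so that both THG-1 lines lay well below empty vector. Its S264A ratio was 0.558 (0.506 to 0.614).

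UQCRFS1, which carries the iron-sulphur cluster that passes electrons on to cytochrome c1, had ratios of 0.753 in S264A (0.693 to 0.816) and 0.946 in wild type (0.875 to 1.02). UQCR10, a small membrane subunit, stood at 29.5, 37.9 and 38.2 RPKM, with an S264A ratio of 0.773 (0.689 to 0.867), and only the S264A line was low. UQCRH, the hinge protein that binds cytochrome c1, was at 33.9, 34.9 and 42.0 RPKM, low in both THG-1 lines. The core proteins UQCRC1 and UQCRC2 were nearer to even, with S264A ratios of 0.847 (0.786 to 0.913) and 0.910 (0.855 to 0.968). Cytochrome c1 itself, CYC1, is outside the symbol rule. It had 42.2 RPKM in S264A, 58.3 RPKM in wild type and 61.4 RPKM with empty vector, an S264A ratio of 0.687 (0.643 to 0.733).

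**Figure D4:**
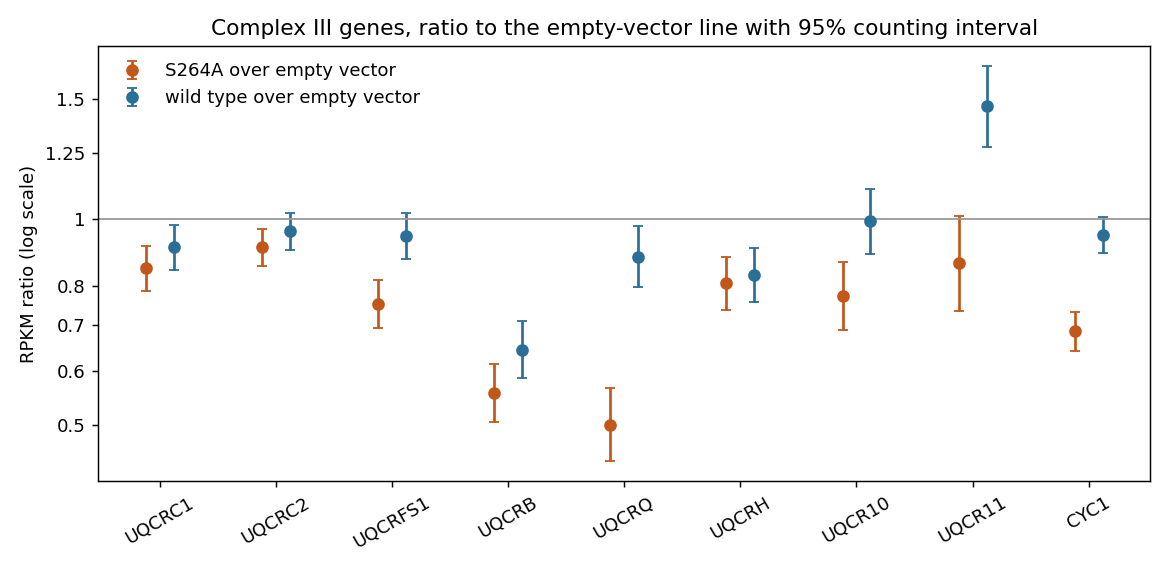
Ratio of RPKM to the empty-vector line (log scale) for the 8 complex III genes and CYC1 in S264A and wild type, with 95% counting intervals. UQCRQ lies at 0.501 in S264A and 0.882 in wild type, UQCRB is low in both lines, and UQCR11 is at 1.46 in wild type.

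Complex IV held both the member that stood highest in S264A and one of the lowest. COX4I1, an early-joining subunit that binds adenine nucleotides, had 47.0 RPKM in S264A, 35.5 RPKM in wild type and 31.2 RPKM with empty vector. Its ratio was 1.51 in S264A (1.42 to 1.59), a log2 difference of 0.57, and S264A was the highest line. COX5A, which joins the same early intermediate, had 37.7, 42.8 and 50.5 RPKM, a ratio of 0.746 (0.686 to 0.810), opposite in direction to its partner. COX7C, a small membrane subunit, had 20.1 RPKM in S264A, 29.8 RPKM in wild type and 34.5 RPKM with empty vector, a ratio of 0.584 (0.531 to 0.641). COX7B and COX6C, also small membrane subunits, had ratios of 0.686 (0.630 to 0.747) and 0.681 (0.601 to 0.771). The remaining complex IV genes above 1 RPKM lay between a log2 difference of -0.27 for COX7A2 and 0.11 for COX7A2L, which was at -0.06 with upper-quartile scaling.

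In complex V the subunits of the catalytic head, F1, did not move in step. ATP5A1, the alpha subunit, had 40.3 RPKM in S264A, 57.7 RPKM in wild type and 69.0 RPKM with empty vector, a ratio of 0.585 (0.557 to 0.613) from 2135 and 8347 reads. ATP5B, which alternates with alpha in the head, had a ratio of 0.882 (0.854 to 0.912). The gamma, delta and epsilon genes ATP5C1, ATP5D and ATP5E had log2 differences of -0.29, -0.17 and -0.20. The 4 peripheral stalk genes lay between -0.25 for ATP5O and -0.13 for ATP5H, and the 3 c ring genes between -0.45 for ATP5G3 and -0.20 for ATP5G2. ATP5L, the subunit g that helps synthase dimers form in the membrane, had 14.9 RPKM in S264A, 13.4 RPKM in wild type and 10.9 RPKM with empty vector, a ratio of 1.37 (1.24 to 1.5), the only complex V gene at least 25% higher.

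Complex I, the entry point for NADH, showed its lowest values among accessory subunits. NDUFA2, an accessory subunit of the NADH-oxidising module, had 7.04 RPKM in S264A, 11.2 RPKM in wild type and 12.2 RPKM with empty vector, a ratio of 0.579 (0.480 to 0.695). NDUFA6, which holds the acyl carrier protein, and NDUFA1, an accessory subunit needed for assembly, had ratios of 0.634 (0.553 to 0.726) and 0.649 (0.562 to 0.748), again with wild type near empty vector. Among the nuclear core subunits, which carry the flavin and iron-sulphur centres or bind ubiquinone, NDUFV2 had a log2 difference of -0.23, and NDUFV1 one of 0.07, or -0.13 with upper-quartile scaling. NDUFC1, a membrane arm accessory subunit, was highest at 7.90, 5.62 and 6.35 RPKM, a ratio of 1.24 (1.05 to 1.47), followed by NDUFB11 of the same arm at 0.20. The medians of core and accessory subunits were alike, -0.08 over 7 genes and -0.10 over 30.

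Complex II, which oxidises succinate and is wholly nuclear, stood nearest to even. SDHA had a ratio of 1.00 (0.941 to 1.07), and the iron-sulphur subunit SDHB had 0.914 (0.834 to 1.00). The membrane anchors SDHC and SDHD had ratios of 0.960 (0.877 to 1.05) and 1.22 (1.11 to 1.32).

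The second comparison set wild-type THG-1 against empty vector, and it shares the empty-vector library with the first. Members were again mostly a little lower, with a median of -0.09, against -0.01 for all 11993 genes and 0.09 for the 3401 genes at or above 10 RPKM. Of 77 members, 54 were below 0, against 50.5% of all genes. At least 20% lower were 10 members (13%), against 19.9% of all genes, and 4 were at least 25% higher, against 22.4%. The first count was not stable, with 22 members in the quantile-normalised columns against 22.6% of all genes, 25 with equal-sum scaling against 30.8% and 40 with upper-quartile scaling against 39.6%. No member reached 2-fold in either direction, against 1.54% of all genes lower and 4.53% higher. Between the levels of 20% lower and 25% higher lay 63 of the 77 members, against 6915 of the 11993 genes.

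The complexes were closer to each other here, with medians of -0.20 for complex V, -0.18 for IV, -0.10 for III, -0.08 for I and -0.06 for II. Their order changed with the setting, complex III being lowest under none of the 11 alternatives. NDUFA4, named as a complex I subunit but now known as a subunit of complex IV, had the lowest value, 11.9 RPKM in S264A, 8.24 RPKM in wild type and 15.1 RPKM with empty vector. The wild-type line was thus the low one, with a ratio of 0.547 (0.488 to 0.612), and it was at least 2-fold lower with upper-quartile scaling. ATP5G2 of the c ring showed the same order of lines, 12.6, 9.15 and 14.7 RPKM, with a wild-type ratio of 0.623 (0.562 to 0.690), as did SDHC, 23.9, 17.3 and 24.9 RPKM, with 0.693 (0.623 to 0.770).

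UQCRB and COX6C followed at log2 differences of -0.53 and -0.47 and were low in both THG-1 lines. The highest member was UQCR11, a small subunit of complex III, with 10.4 RPKM in S264A, 17.6 RPKM in wild type and 12 RPKM with empty vector, a wild-type ratio of 1.46 (1.28 to 1.68). By its other row the log2 difference was 0.25 in place of 0.51. NDUFB8, a membrane arm subunit, had a ratio of 1.35 (1.22 to 1.49), NDUFS6, a zinc-binding accessory subunit, 1.32 (1.16 to 1.5), and ATP5D, the delta subunit of F1, 1.26 (1.17 to 1.37). These genes were at 9.89, 13.7 and 10.1 RPKM, at 15.9, 20.1 and 15.2 RPKM and at 33.7, 48.0 and 38.0 RPKM in the S264A, wild-type and empty-vector lines, so that wild type was the highest line for each. COX4I1 was at 0.18, and at -0.08 with upper-quartile scaling.

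The third comparison set S264A against wild-type THG-1 and shares a library with each of the others. The members had a median of -0.07, against 0.02 for all 12069 genes and -0.08 for the 3394 genes at or above 10 RPKM, and this median was 0.04 with libraries scaled to an equal sum. Below 0 were 54 of 77, against 47.7% of all genes and 59.4% of the genes at or above 10 RPKM. At least 20% lower were 13 members (16.9%), against 17% of all genes, a share at the background, and 6 were at least 25% higher, against 19.1%. Of the genes at or above 10 RPKM, 23.0% were at least 20% lower and 13.1% at least 25% higher. No member was 2-fold lower or higher, against 2.23% and 1.55% of all genes.

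Complexes III and II stood at the ends. Complex III had a median of -0.25 with all 8 genes below 0, and complex II a median of 0.20 with 3 of 4 above 0. They stayed lowest and highest under all 11 alternatives, although with equal-sum scaling and in the quantile-normalised columns 5 of the 8 complex III genes were below 0. With the other rows of the genes that have several, SDHD left the comparison and the complex II median was 0.03. Complex IV was at -0.12, and at -0.01 with equal-sum scaling. Complex V at -0.06 and complex I at -0.06 both stood at 0.04 with that scaling.

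UQCRQ again had the lowest value, with S264A at 0.569 times the wild-type level (0.493 to 0.655), followed by UQCR11 at 0.590 (0.495 to 0.702), NDUFA2 at 0.627 (0.504 to 0.777), COX7C at 0.676 (0.605 to 0.755) and ATP5A1 at 0.699 (0.661 to 0.740). Each of these was lower in S264A than in both other lines, except UQCR11 by its other row, which stood at 11.6 RPKM in S264A, 13.6 RPKM in wild type and 11.2 RPKM with empty vector. The highest were NDUFA4 at 1.45 (1.27 to 1.65), NDUFC1 at 1.40 (1.13 to 1.75), SDHC at 1.39 (1.23 to 1.57), ATP5G2 at 1.38 (1.22 to 1.55) and COX4I1 at 1.32 (1.24 to 1.42). For NDUFA4, SDHC and ATP5G2 it was the wild-type line that was low, while COX4I1 was highest in S264A. SDHD, the other anchor, had a ratio of 1.31 (1.17 to 1.46).

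Across the 3 lines, empty vector was the highest for 47 of the 77 members and S264A the lowest for 48, and 33 followed the order S264A below wild type below empty vector. That order held for 7 of 8 complex III genes, 9 of 17 in complex V, 5 of 11 in complex IV, 12 of 37 in complex I and 0 of 4 in complex II. The wild-type line was the lowest for 21 members, among them 3 of the 4 complex II genes. These orders were counted for the members only. Without the same shares over all compared genes, they cannot show that an order is particular to the members or to a complex. Of the summed member RPKM, complex III held 10.2% in S264A, 11.4% in wild type and 11.5% with empty vector, and complex II held 4.84%, 3.80% and 4.05%. The other complexes held close to the same share in each line, complex I between 31.7% and 32.7%.

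Other mitochondrial genes were read from fixed lists. Assembly factors of complex I had a median of -0.02 in S264A over empty vector (16 genes), those of complex III -0.08 (6 genes) and those of complex IV -0.04 (22 genes). With upper-quartile scaling these medians were -0.19, -0.25 and -0.23, against -0.37 for the respiratory chain genes. In the same comparison 2 of the 16 complex I factors were at least 20% lower, against 13.5% of all genes, and 2 at least 25% higher, against 18.6%, with NDUFAF3 at -0.43 and FOXRED1 at 0.36 as the extremes. Of the 22 complex IV factors, also not above those shares, 1 was lower, COX11, which delivers copper, at -0.42, and 3 were higher, led by PET117 at 0.55. LYRM7, which escorts the Rieske protein into complex III, had 1.71 RPKM in S264A, 2.04 RPKM in wild type and 2.46 RPKM with empty vector, a log2 difference of -0.35 and the only complex III factor at least 20% lower. Of the 3 compared complex II factors, SDHAF1 was at 5.55, 3.12 and 4.11 RPKM, with wild type lowest as in SDHC. SDHD was also lowest in wild type, but its wild-type ratio to empty vector was 0.929 (0.842 to 1.02). The median of the 3 factors in S264A over wild type was 0.34. ATPAF1, an assembly factor of F1, also had its lowest value in wild type, 3.77, 2.54 and 3.88 RPKM.

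The 13 subunits of the mitochondrial genome stood nearer to even than the nuclear ones in S264A over empty vector. Their median there was 0.00, with 6 of 13 below 0 and none past either level, and it was -0.20 with upper-quartile scaling, against -0.37 for the nuclear members under that scaling. In wild type over empty vector their median was 0.13, but 0.00 in the quantile-normalised columns, -0.02 with equal-sum scaling and -0.13 with upper-quartile scaling. In S264A over wild type it was -0.17 with 11 of 13 below 0, lower than that of the nuclear members, and 0.00 in the quantile-normalised columns. In those columns a gene of equal rank in both libraries has a difference of exactly 0. The medians of 0.00 there thus cannot show whether a difference was stable. MT-CYB, the cytochrome b of complex III, had ratios to empty vector of 0.964 in S264A (0.947 to 0.980) and 1.10 in wild type (1.08 to 1.12), next to UQCRQ at 0.501 and 0.882. Mitochondrial rRNA differed far more, MT-RNR1 standing at 101 RPKM in S264A, 188 RPKM in wild type and 62.9 RPKM with empty vector, and the sources used here do not say how rRNA was removed.

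The 13 citric acid cycle genes had a median of -0.21 in S264A over empty vector, with 10 below 0, and of -0.40 with upper-quartile scaling. IDH3B, a subunit of isocitrate dehydrogenase, was higher in both THG-1 lines, with 23.2 RPKM in S264A, 30.7 RPKM in wild type and 11.8 RPKM with empty vector, and was the only gene of this list past 2-fold, in wild type over empty vector. The 76 mitochondrial ribosomal protein genes had a median of -0.07 in S264A over empty vector, and of -0.26 with upper-quartile scaling, -0.12 in the quantile-normalised columns and -0.11 with equal-sum scaling. In wild type over empty vector 75 of them were compared, with a median of 0.07, and of -0.07 with equal-sum scaling, -0.17 with upper-quartile scaling and -0.03 in the quantile-normalised columns. In S264A over wild type their median was -0.11, and -0.00097 with equal-sum scaling.

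Among 12 compared regulators of respiratory genes, the median was 0.06 in S264A over empty vector (-0.10 with upper-quartile scaling), 0.34 in wild type over empty vector and -0.37 in S264A over wild type. The wild-type value moved with the setting, to 0.10 with upper-quartile scaling, 0.13 with no filter, 0.20 with equal-sum scaling and 0.58 with a filter at 10 RPKM, which left 5 genes. MYC, a transcription factor with many mitochondrial targets, stood at 54.6 RPKM in S264A, 80.1 RPKM in wild type and 32.0 RPKM with empty vector, and its wild-type ratio of 2.50 (2.38 to 2.63) was the only 2-fold difference of the list on the log2(RPKM + 1) scale. The coactivators PPARGC1B and PPRC1 were highest in wild type, at 1.78, 3.45 and 1.69 RPKM and at 11.6, 17 and 10.8 RPKM. POLRMT, the mitochondrial RNA polymerase, and TFB2M, which it needs to start, were also highest in wild type, at 6.90, 10.1 and 6.45 RPKM and at 5.63, 9.31 and 5.81 RPKM. In wild type over empty vector, however, 5 of the 12 regulators were below 0. YY1 was the lowest of them, at 15.6 RPKM in S264A, 11.8 RPKM in wild type and 14.5 RPKM with empty vector. TFB1M was the lowest regulator in S264A over empty vector, at 4.85, 7.12 and 7.47 RPKM. NRF1 itself was nearly even at 3.79, 3.10 and 3.58 RPKM, and GABPA was at 2.19, 2.60 and 2.91 RPKM. PPARGC1A had 0, 0 and 1 reads.

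**Figure D5:**
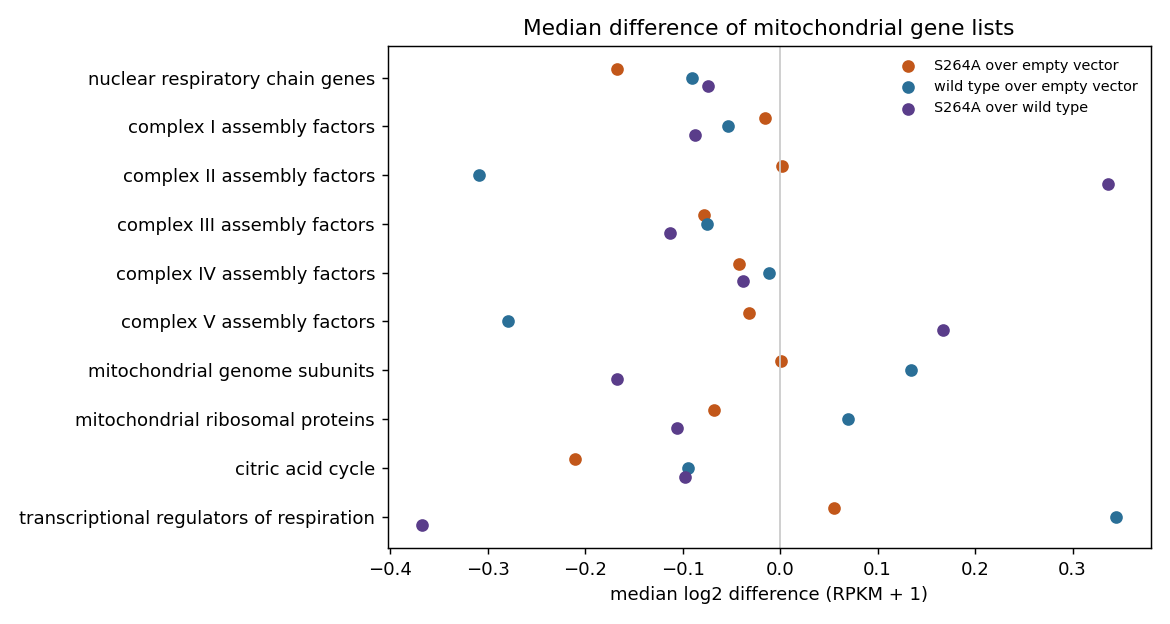
Median log2 difference of the nuclear respiratory chain genes and of 9 other mitochondrial gene lists in the 3 comparisons. The nuclear genes lie at -0.17 in S264A over empty vector, where mitochondrial genome subunits lie at 0.00, and the regulators lie at 0.34 in wild type over empty vector, a value that was 0.10 with upper-quartile scaling.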

How the data were processed

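RNA was sequenced from 3 HaCaT-HRasG12V lines, 1 library each. The deposited table gives, per the file headers, expression values in RPKM, computed by the authors, and normalised values, which are the same RPKM after quantile normalisation (after sorting, values are identical between libraries and lie within 6.67e-06 of the mean over libraries). The submitters' processing notes name hg19. Aligner, counter, annotation, strandedness and the handling of reads shared with pseudogenes were not given in the sources used here, so a member with a near-identical or overlapping copy is uncertain.

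Row numbers after a symbol were removed, and the row of highest mean was used where a symbol had several (234 symbols). A gene was compared where either library reached 1 RPKM, differences were log2((RPKM + 1)/(RPKM + 1)), which understates the change of low genes, and counts were taken at 2-fold and at 25% higher or 20% lower. Printed ratios are plain RPKM ratios. Reads per gene were recovered from the steps of the RPKM values (tolerance 0.001 reads), with GENCODE release 29 lengths for 41 members and the smallest fitting length for 39, which can understate reads and widen 95% intervals. The step was tested on simulated data. With 1 library per line no test was run. Named genes are the extremes of each comparison, complex and list, isoform families, members below 1 RPKM, and every gene at 2-fold; others, such as partners in complex III, were chosen after their values were seen. Some genes that this rule names are not reported here. Members and lists were chosen with earlier results of these data known. Python 3.11.15, pandas 2.3.3, numpy 2.4.6 and scipy 1.17.1 were used.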

Additional observations from a re-analysis of the deposited data

How the results depend on the processing

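No paired analysis was possible because each line has 1 library. The medians depended most on scaling. With upper-quartile scaling, S264A over empty vector gave -0.37 for all members, -0.27, -0.22, -0.53, -0.41 and -0.39 for complexes I to V, and -0.15 for all genes, which were at 0.02 as deposited, with 43 members at least 20% lower, 1 higher and 1 at least 2-fold lower. Wild type over empty vector then gave -0.34 for all members, -0.31, -0.31, -0.36, -0.45 and -0.38 for complexes I to V and -0.23 for all genes, with 40 members at least 20% lower, 0 higher and 1 at least 2-fold lower. All genes at least 2-fold lower then numbered 177 and 362 in these comparisons. With equal-sum scaling, wild type over empty vector gave -0.23 for all members, -0.22, -0.21, -0.26, -0.34 and -0.30 for complexes I to V and -0.14 for all genes, with 25 members at least 20% lower and 1 higher. S264A over wild type then gave 0.036 for all members, 0.043, 0.31, -0.14, -0.012 and 0.044 for complexes I to V, and 35 members below 0. The quantile-normalised columns gave 1 member 2-fold lower in S264A over empty vector. In wild type over empty vector they gave -0.20 for all members, -0.18, -0.27 and -0.30 for complexes II to IV, and 22 members at least 20% lower and 1 higher. In S264A over wild type they gave -0.0077 for complex IV. In each case the cause was not tested.

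With a pseudocount of 5, members past the 20% lower and 25% higher levels in wild type over empty vector numbered 5 lower and 1 higher, and 3 were higher in S264A over wild type. A filter at 10 RPKM moved complex I in S264A over wild type to -0.17, and the members' median relative to all genes in wild type over empty vector to -0.19. For genes with several rows, the use of the other row, or of names as deposited, was chosen after seeing the data and gave 0.025 for complex II in S264A over wild type, and with names as deposited 2 members were at least 25% higher in wild type over empty vector. With complexes assigned by present knowledge the complex V median with empty vector was 17.3 RPKM. All genes 2-fold lower and higher in S264A over empty vector numbered 246 and 695 with a pseudocount of 0.1, 9 and 85 with 5, 26 and 178 with a filter at 5 RPKM, and 12 and 109 at 10 RPKM. In wild type over empty vector they numbered 492 and 869, 18 and 166, 70 and 317, and 35 and 203 under the same settings, and in S264A over wild type 518 and 509, 63 and 26, 149 and 71, and 90 and 36. Of 387 alternative values for the 36 named extremes, each a gene in a given comparison, 7 changed sign. Extremes of all members were chosen for lying far from 0, but extremes of a complex could lie near it. SDHB was at 0.04 in wild type over empty vector, and UQCRH at -0.04 in S264A over wild type. Depth limits members with few reads, such as ATP5S with 37 reads in wild type.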

Other observations

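NDUFA7, an accessory subunit of complex I, has 2 rows that go opposite ways. The row used here stood at 13.4 RPKM in S264A, 18.6 RPKM in wild type and 18.5 RPKM with empty vector, and the other at 4.46, 2.36 and 2.03 RPKM, with log2 differences of S264A from empty vector of -0.44 and 0.85. The rows of NDUFB8 went the same way, 9.89, 13.7 and 10.1 RPKM in one and 3.02, 4.22 and 3.14 RPKM in the other.

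Across the 77 members, Pearson r was -0.61 and Spearman rho -0.60 between log2 mean RPKM and log2 length, a description over genes that share the same 3 libraries. RPKM is itself divided by this length, so a negative value is partly built in. No conclusion about longer transcripts is drawn from it. The difference of S264A from empty vector had r of 0.13 and rho of 0.15 with log2 length, and r of -0.16 and rho of -0.21 with log2 level. The difference of S264A from wild type had r of 0.24 and rho of 0.23 with log2 length, and r of -0.24 and rho of -0.32 with log2 level.

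Among mitochondrial ribosomal protein genes, MRPS26 had the highest value of its list in wild type over empty vector, a ratio of 1.99 (1.8 to 2.19), and MRPL13 the lowest, 0.584 (0.495 to 0.686). MRPL12 and MRPL30 were the extremes of S264A over wild type, at log2 differences of -0.60 and 0.91, MRPL30 with 51 reads in S264A and 9 in wild type.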
